A study of Mus musculus with 12 samples.

Results

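Oxidative phosphorylation subunits are the nuclear-encoded building blocks of the 5 complexes with which mitochondria burn fuel and make ATP. Their genes were picked by symbol alone: every transcript cluster with exactly 1 gene symbol that begins with Nduf followed by a, b, c, s or v and a digit, is Sdha, Sdhb, Sdhc or Sdhd, begins with Uqcr or Atp5, or names a Cox4 to Cox8 subunit. A transcript cluster is the set of probes that reads 1 transcript on the array. The patterns matched 105 clusters of 28944 on the array, and these stood for 81 genes of 19938 with such a cluster. For the 16 genes with more than 1 cluster, the cluster with the highest mean was used. Complex I had 35 members, complex II 4, complex III 8, complex IV 17 and complex V 17. Each gene was counted with a complex by the start of its symbol. No measured value of a comparison entered this rule, but the members were chosen with earlier results of these data known.

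The mice were 1 month old, were kept free of specific pathogens, and formed 3 groups of 4 arrays: WT, Pax5+/- and Cd72+/-;Pax5+/-. Every Cd72+/-;Pax5+/- mouse thus also carries the loss of 1 Pax5 copy that defines the Pax5+/- group, and no group lacks Cd72 alone. Pax5 encodes the transcription factor that commits cells to the B lineage, while the product of Cd72 is a surface co-receptor that dampens B-cell signals. The tissue label of all 12 samples is pro-B cells of the bone marrow, while the cell type label calls the cells of both mutant groups preleukemic. RNA was read on Affymetrix Mouse Gene 1.0 ST arrays, and the values are log2 signals, so that a difference of 1 is a 2-fold change. Whether arrays of 1 group stand for different animals or cultures is not stated, so each p-value refers to the spread among these arrays alone, which may be technical.

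In oxidative phosphorylation, complex I (NADH dehydrogenase, the Nduf genes) and complex II (succinate dehydrogenase, the Sdh genes) feed electrons from NADH and succinate into ubiquinone. Complex III (the Uqcr genes) passes them to cytochrome c, and complex IV (cytochrome c oxidase, the Cox genes) hands them to oxygen. Complexes I, III and IV pump protons out of the matrix, and complex V (ATP synthase, the Atp5 genes) lets them back to make ATP. Complex II is the only complex made wholly of nuclear-encoded subunits and also acts in the tricarboxylic acid cycle. The other complexes join nuclear subunits to a few encoded by mitochondrial DNA. Precursor B cells are known to draw on oxidative phosphorylation during their interleukin-7-driven growth, and Pax5 is known to restrict their energy supply.

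Over all clusters the arrays had similar medians, 6.91 to 7.005 in log2 signal. Pax5 read 11.4 to 11.72 on the WT arrays, 10.65 to 11.21 on the Pax5+/- arrays and 11.11 to 11.31 on the Cd72+/-;Pax5+/- arrays. Cd72 read 7.34 to 7.67 on the Cd72+/-;Pax5+/- arrays, below the 8.43 to 9.39 of WT and the 10.03 to 10.27 of Pax5+/-. The Pax5 ranges of WT and of either mutant group did not overlap, and neither did any of the Cd72 ranges. Xist signal was high on the Cd72+/-;Pax5+/- arrays, and Uty signal was high on all the others, so sex cannot be told apart from the Cd72 genotype. The 13 measured pro-B markers averaged 11.31 to 11.53 on the Cd72+/-;Pax5+/- arrays, 11.54 to 11.71 on the Pax5+/- arrays and 10.95 to 11.86 on the WT arrays, and among them Dntt fell by 2.34 in Cd72+/-;Pax5+/- against WT. The defining genes of the labelled cell type were thus present throughout.

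Certain arrays stood apart for the subunit genes. Pax5+/- replicate 1 held the highest of all 12 values for 59 of the 81 members, whereas 10.9% of all clusters with a symbol were highest there. The median member signal was 10.14 on that array, against 9.50, 9.42 and 9.31 on Pax5+/- replicates 2 to 4. Cd72+/-;Pax5+/- replicate 4 held the highest value for 11 further members, with a median of 10.01 against 9.60, 9.74 and 9.74 on replicates 1 to 3. The WT medians were 9.42, 9.61, 9.61 and 9.37. Within their own groups, Pax5+/- replicate 1 was the highest array for 74 members and Cd72+/-;Pax5+/- replicate 4 for 72. The same pair of arrays had the highest means of 57 cytosolic ribosomal protein genes, 11.74 and 11.67 against 11.16 to 11.50 elsewhere. These arrays also had the highest means of the tricarboxylic acid cycle genes, at 10.18 and 10.09. The same held for the electron carriers and ATP exporters, at 9.02 and 8.98, and for both lists of assembly factors. The pair had the widest spread over all clusters, with SDs of 2.099 and 2.092 against 2.027 to 2.065. The part of this difference in the results was not tested, and the counts and medians of the members and of each complex are given with and without these arrays. Medians of parts of a complex and counts of members without overlap are given with all 12 arrays only.

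**Figure D1:**
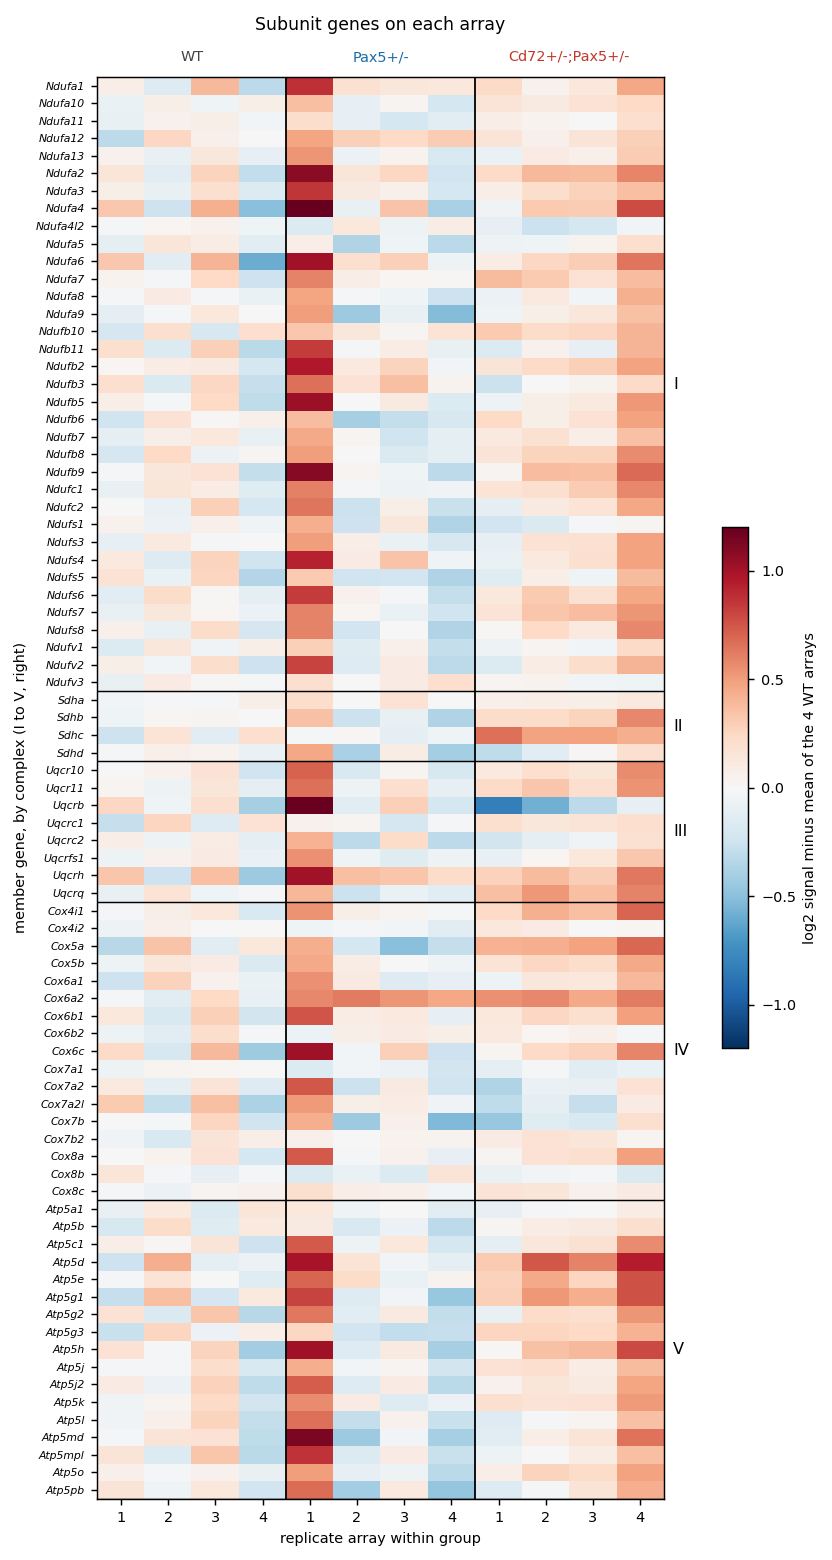
Log2 signal of each of the 81 subunit genes (rows, by complex I to V) on each of the 12 arrays (columns, by group and replicate), less the gene's mean on the 4 WT arrays, with red for higher and blue for lower. Pax5+/- replicate 1 and Cd72+/-;Pax5+/- replicate 4 each lie above the WT mean in 75 rows, while Cox6a2 is red on all 8 mutant arrays.

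The spread between arrays of 1 group was larger for the subunit genes than for most clusters. The median within-group SD was 0.2435 over the members and 0.0982 over all clusters with a symbol. In Pax5+/- the median SD of the members was 0.343, and over replicates 2 to 4 alone it was 0.136. In WT it was 0.173 and in Cd72+/-;Pax5+/- 0.169. The WT arrays also divided into their closest pairs, replicates 1 and 3 against replicates 2 and 4: in 33 members both arrays of the first pair lay above both of the second, and in 16 members the reverse held. Ndufa4 is linked to complex IV but was counted here with complex I by its symbol alone. It read 10.25 and 10.36 on WT replicates 1 and 3 and 9.68 and 9.43 on replicates 2 and 4. Atp5g1, a c-ring subunit of ATP synthase, was the other way, at 9.26 and 9.33 on replicates 1 and 3 and 9.89 and 9.65 on replicates 2 and 4.

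The upstream sequences of the subunit genes are shown because the members moved together from array to array, and because nuclear respiratory factor 1 (NRF1), ETS-family GABP, YY1 and Sp1 are known regulators of such genes. RefSeq windows (assembly GRCm38.p6, 250 bases before to 50 after the transcript start) were matched for 66 of the 81 members. The chromosome that carries Atp5a1 and Ndufa2 was left out, for the members and for the genes they are compared with. The NRF1 core GCGCATGC was present in 10 of the 66 windows (15.2%) and in 3.93% of the windows of 17491 protein-coding genes. The YY1 core AAGATGGC was present in 10 windows (15.2%) against 3.57%. The ETS core CCGGAAGT was in 5 windows (7.58%) against 5.69%, the Sp1 box GGGCGG in 27 (40.9%) against 49.2%, and CCAAT in 29 (43.9%) against 42.3%. Both strands were searched, and a match describes letters and not a bound site.

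The windows with the NRF1 core were those of Sdhb, Cox6a1, Ndufa6, Ndufa8, Ndufa11, Uqcrc1, Uqcr11, Atp5g2, Atp5k and Atp5l, and those with the ETS core were Ndufs3, Uqcr11, Uqcrh, Cox8a and Atp5h. The YY1 core was found for 7 genes of complex I (Ndufa3, Ndufa9, Ndufb8, Ndufc1, Ndufs4, Ndufs6 and Ndufs7) and for Atp5j, Atp5j2 and Atp5pb. The 250 bases before the start are printed 5′ to 3′ on the gene's strand for Cox5a, a called member, for Sdhb, the iron-sulphur partner of the called Sdhc, for Cox6a1, the common counterpart of the called Cox6a2, and for Uqcrh, the complex III member with the highest mean. They lie at chr9:57520982-57521231 and chr4:140961021-140961270 on the plus strand, and at chr5:115348959-115349208 and chr4:116075071-116075320 on the minus strand. Capitals mark matches of the NRF1, ETS, YY1 or Sp1 letters on either strand.
Cox5a: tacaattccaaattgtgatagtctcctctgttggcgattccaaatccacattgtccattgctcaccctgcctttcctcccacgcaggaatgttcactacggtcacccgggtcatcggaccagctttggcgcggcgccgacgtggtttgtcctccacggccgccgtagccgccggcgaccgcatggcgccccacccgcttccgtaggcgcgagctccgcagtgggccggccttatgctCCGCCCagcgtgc
Sdhb: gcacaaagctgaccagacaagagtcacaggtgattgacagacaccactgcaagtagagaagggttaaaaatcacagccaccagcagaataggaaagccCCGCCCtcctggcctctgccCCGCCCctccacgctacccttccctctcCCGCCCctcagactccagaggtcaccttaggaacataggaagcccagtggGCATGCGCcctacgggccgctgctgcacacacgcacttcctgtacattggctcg
Cox6a1: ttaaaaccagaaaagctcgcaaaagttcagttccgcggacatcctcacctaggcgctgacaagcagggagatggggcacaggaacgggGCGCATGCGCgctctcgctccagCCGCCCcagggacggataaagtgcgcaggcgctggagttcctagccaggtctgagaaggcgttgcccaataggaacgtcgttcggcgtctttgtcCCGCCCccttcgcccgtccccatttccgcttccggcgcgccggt
Uqcrh: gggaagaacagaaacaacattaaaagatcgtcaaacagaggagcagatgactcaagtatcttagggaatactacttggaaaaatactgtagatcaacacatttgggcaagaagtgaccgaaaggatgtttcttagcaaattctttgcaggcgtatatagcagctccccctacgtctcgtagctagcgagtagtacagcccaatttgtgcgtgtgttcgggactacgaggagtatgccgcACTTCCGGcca

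Cox5a held 1 Sp1 box close to the start, Sdhb held 3 Sp1 boxes and the NRF1 core, and Uqcrh held the ETS core. Cox6a1 held 2 Sp1 boxes and 2 overlapping copies of the NRF1 core, 1 on each strand, which make up a palindrome. Cox6a2, Sdhc and Uqcrq, the other called members, are named only.

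The first question was what loss of 1 Pax5 copy changed. Cox6a2, the heart and skeletal muscle isoform of cytochrome oxidase subunit VIa, rose in Pax5+/- against WT, and it was the only one of the 81 members called (1.23%, at a limma adjusted p under 0.05 over all 23410 clusters with a symbol). Of all these clusters 7.47% were called in this comparison, 4.28% higher and 3.2% lower. The other 80 members did not pass. The median change of the members was 0.08, with 59 above 0 and 22 below, beside a median of -0.005 over all clusters, of which 47.4% were above 0. At an unadjusted p under 0.05 there were 4 members (Ndufa12, Uqcrh and Cox6a2 higher, Cox7a1 lower), where 18.0% of all clusters reached that level. Cox6a2 (1.23%) was also the one member without overlap between the groups, where 10.7% of all clusters had none and 5.84% had none with the mutant higher. Without Pax5+/- replicate 1 the median was -0.0642, with 25 members above 0 and 56 below, and Cox6a2 remained the single call. In bulk samples such as these, fewer cells of a type and less RNA per cell cannot be told apart.

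The second question was what differed when 1 copy of both genes was lost. Against WT, Cox6a2, Sdhc (the membrane anchor of succinate dehydrogenase) and Uqcrq (a small subunit of complex III) rose in Cd72+/-;Pax5+/-, 3 of 81 members (3.7%) where 7.78% of all clusters were called, 4.12% higher and 3.66% lower. No member fell and 78 did not pass. The median change of the members was 0.18, with 69 above 0 and 12 below, beside a median of 0.0025 and 50.4% above 0 over all clusters. At an unadjusted p under 0.05 there were 16 members, all higher, where 19.7% of all clusters reached that level. In 15 members (18.5%) every Cd72+/-;Pax5+/- array lay above every WT array, and in none was the order reversed. Over all clusters 14.8% had no overlap, 7.61% with the mutant higher.

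These 15 were Ndufa10, Ndufb10, Ndufb2, Ndufc1 and Ndufs7 of complex I, Sdhb and Sdhc of complex II, Uqcr11 and Uqcrq of complex III, Cox4i1, Cox5a, Cox5b and Cox6a2 of complex IV, and Atp5e and Atp5o of complex V. Without Cd72+/-;Pax5+/- replicate 4, the median over the members was 0.12 with 63 above 0, and Sdhc and Cox6a2 kept their calls. Without Pax5+/- replicate 1, which enters this comparison only through the shared estimate of the spread, 10 members were called, where 8.77% of all clusters were. The added ones were Ndufs7, Sdhb, Uqcr11, Cox4i1, Cox5a, Atp5d and Atp5e, all higher.

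The third question was what the added loss of 1 Cd72 copy changed within the Pax5 heterozygotes. Sdhc, Uqcrq and Cox5a, a subunit of cytochrome oxidase, rose in Cd72+/-;Pax5+/- against Pax5+/-, again 3 of 81 members (3.7%), where 9.79% of all clusters were called, 4.44% higher and 5.35% lower. No member fell, and 78 did not pass. The median change was 0.0825, with 61 members above 0 and 20 below, beside 0.005 and 52.0% above 0 over all clusters. At an unadjusted p under 0.05 there were 9 members, 7 higher and Uqcrb and Ndufv3 lower, where 22.2% of all clusters reached that level. Sdhc, Uqcrc1 and Cox4i2 (3.7%) had no overlap between the groups, where 18.5% of all clusters had none, 9.59% with the double mutant higher. At the study's own threshold, an unadjusted p under 0.05 with a change over 2-fold, no member passed in any of the 3 comparisons (limma, with 4, 16 and 9 members at that p alone), where 0.957%, 0.914% and 1.2% of all clusters did.

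This comparison turned on Pax5+/- replicate 1. Without it the median over the members was 0.25 with 73 above 0, and 16 members were called, all higher, where 9.96% of all clusters were called. They were 7 genes of complex I (Ndufa10, Ndufa11, Ndufa9, Ndufb6, Ndufb8, Ndufc1 and Ndufs7), Sdhb and Sdhc, Uqcrq, Cox4i1 and Cox5a, and Atp5d, Atp5g1, Atp5g3 and Atp5o. Without Cd72+/-;Pax5+/- replicate 4 the median was 0.0183 with 46 above 0, and Sdhc was the single call, as it was without any of Pax5+/- replicates 2, 3 or 4 or without Cd72+/-;Pax5+/- replicate 2. With both high arrays left out, a setting chosen after their values were seen, 11 members were called higher where 7.44% of all clusters were called. The 3 comparisons share their groups in pairs and are given side by side without a measure of overlap.

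**Figure D2:**
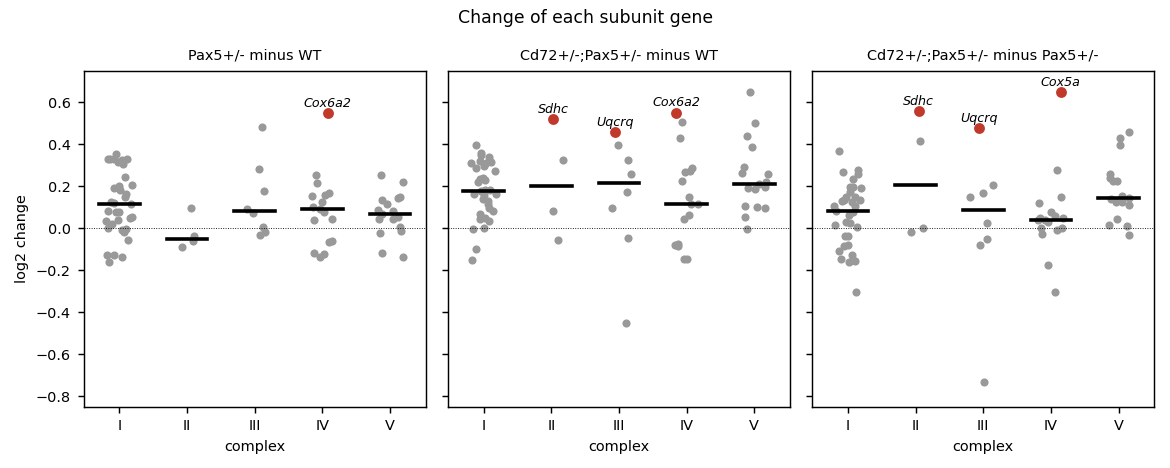
Log2 change of each subunit gene (points) in the 3 comparisons, by complex, with the median of each complex as a bar and called members (limma adjusted p under 0.05) in red with their names. In Cd72+/-;Pax5+/- minus WT all 5 complex medians lie above 0, from 0.115 to 0.215, and the lowest point is Uqcrb at -0.45.

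Complex I supplied 35 members and no call in any comparison (limma, with 1, 4 and 2 members at an unadjusted p under 0.05 in the order above). That level was reached by 18.0%, 19.7% and 22.2% of all clusters. The median changes of complex I were 0.11 in Pax5+/- against WT, 0.18 in Cd72+/-;Pax5+/- against WT and 0.0825 between the mutants. Without Pax5+/- replicate 1 the first of these turned to -0.07, with 11 members above 0 and 24 below, and the third was 0.25, with 7 members called higher where 9.96% of all clusters were called; the second stayed at 0.18 with Ndufs7 called. Without Cd72+/-;Pax5+/- replicate 4 the medians were 0.11, 0.12 and 0.005 with no call (5.85% to 7.83% of all clusters were called). With all arrays, the smallest adjusted p were 0.0805, 0.101 and 0.169. The 3 genes of the NADH-oxidising core, Ndufs1, Ndufv1 and Ndufv2, which carry the flavin and the first iron-sulphur clusters, had medians of -0.01, 0.0425 and 0.025. The 3 genes of the ubiquinone-reducing core, Ndufs3, Ndufs7 and Ndufs8, had medians of 0.075, 0.235 and 0.2325. The other 29 members counted with complex I, mostly accessory subunits that surround and stabilise the core, had medians of 0.15, 0.18 and 0.0825.

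Ndufs7, which holds the last iron-sulphur cluster before ubiquinone, read 9.39, 9.61, 9.50 and 9.41 on the WT arrays. On the Pax5+/- arrays it read 10.07, 9.50, 9.40 and 9.24, and on the Cd72+/-;Pax5+/- arrays 9.64, 9.81, 9.85 and 10.01. Each Cd72+/-;Pax5+/- array lay above each WT array, and Pax5+/- replicate 1 lay above all of them. The difference from WT of 0.35 (SE 0.145) did not pass (limma adjusted p = 0.198).

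Ndufa12, an accessory subunit, had the smallest adjusted p of complex I in Pax5+/- against WT. It read 9.36, 9.93, 9.74 and 9.68 in the WT group, 10.15, 9.96, 9.92 and 9.98 in Pax5+/-, and 9.83, 9.74, 9.83 and 9.96 in Cd72+/-;Pax5+/-. Only WT replicate 2 reached the Pax5+/- range, and the difference of 0.325 (SE 0.101) did not pass (adjusted p = 0.0805). It was called without WT replicate 2 and after quantile normalization. Ndufc2 had the highest mean of the complex, at 10.52 ± 0.211 in the WT group, 10.56 ± 0.427 in Pax5+/- and 10.67 ± 0.235 in Cd72+/-;Pax5+/- (log2 signal, SD, n = 4), and differed by less than the spread between arrays. Signals of different probe sets are not levels that can be ranked, so the order of means only chose which member to describe.

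Ndufa4 varied most among the members counted with complex I, over 1.96 between its lowest and highest array. It read 11.39 on Pax5+/- replicate 1 and 10.71 on Cd72+/-;Pax5+/- replicate 4, and 9.43 to 10.36 on the other 10 arrays. Its hypoxia-inducible relative Ndufa4l2 read 6.59 ± 0.0457 in the WT group, 6.58 ± 0.135 in Pax5+/- and 6.44 ± 0.1 in Cd72+/-;Pax5+/-, and no difference passed (adjusted p = 0.26 against WT and 0.241 between the mutants). Ndufa4l2 was thus flat on the arrays where Ndufa4 was high.

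In complex II the anchor gene was the one that passed. In Cd72+/-;Pax5+/- 1 of the 4 subunit genes, Sdhc, rose against both other groups, while Sdha, Sdhb and Sdhd did not pass. Sdhc encodes the large cytochrome b anchor that holds the enzyme in the membrane and forms the ubiquinone site together with Sdhd. It read 9.93, 10.34, 10.05 and 10.38 in WT and 10.16, 10.19, 10.07 and 10.12 in Pax5+/-. On the Cd72+/-;Pax5+/- arrays it read 10.84, 10.66, 10.66 and 10.61. All 4 of these lay above all 8 other arrays, and Pax5+/- replicate 1, high for most members, was not high here.

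Sdhc rose by 0.52 against WT (SE 0.0929, limma adjusted p = 0.00365, 1.43-fold) and by 0.56 against Pax5+/- (SE 0.0929, adjusted p = 0.00166, 1.47-fold). The exact two-sided permutation p was 0.0286 in each, the smallest that 4 arrays against 4 can give. It did not pass in Pax5+/- against WT, at -0.04 with a 95% interval of -0.242 to 0.162. Both calls held when any single array was left out and ended when the closest pairs of arrays were averaged (adjusted p = 0.239 and 0.168).

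Sdha, the flavoprotein that oxidises succinate, had the narrowest range of all 81 members, 0.24 over the 12 arrays. It read 11.07 to 11.17 in the WT group, 11.10 to 11.31 in Pax5+/- and 11.16 to 11.22 in Cd72+/-;Pax5+/-, and no difference passed. Sdhb, the iron-sulphur subunit, read 10.10, 10.17, 10.18 and 10.15 in the WT group, 10.50, 9.89, 10.06 and 9.79 in Pax5+/-, and 10.37, 10.37, 10.42 and 10.73 in Cd72+/-;Pax5+/-. All Cd72+/-;Pax5+/- arrays lay above all WT arrays, and Pax5+/- held both the lowest value and, on replicate 1, a value above 3 of the Cd72+/-;Pax5+/- arrays. The differences of 0.32 from WT and 0.41 from Pax5+/- did not pass (SE 0.13 each, adjusted p = 0.184 and 0.0695). Without Pax5+/- replicate 1 both passed. With both high arrays left out, Sdhb was called lower in Pax5+/- than in WT.

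Sdhd, the small anchor and the partner of Sdhc, read 9.92, 10.01, 9.99 and 9.87 in the WT group, 10.41, 9.56, 10.04 and 9.54 in Pax5+/-, and 9.64, 9.82, 9.96 and 10.14 in Cd72+/-;Pax5+/-. The 3 groups overlapped. The difference between the mutants was 0.0025, with a 95% interval of -0.364 to 0.369, and that from WT was -0.0575, with an interval of -0.424 to 0.309. An increase of Sdhd the size of that of Sdhc lay outside both intervals. The median of the 4 genes of complex II was -0.05 in Pax5+/- against WT, 0.2013 in Cd72+/-;Pax5+/- against WT and 0.2075 between the mutants. It was -0.1413, 0.2013 and 0.3679 without Pax5+/- replicate 1, and -0.05, 0.1521 and 0.1483 without Cd72+/-;Pax5+/- replicate 4.

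**Figure D3:**
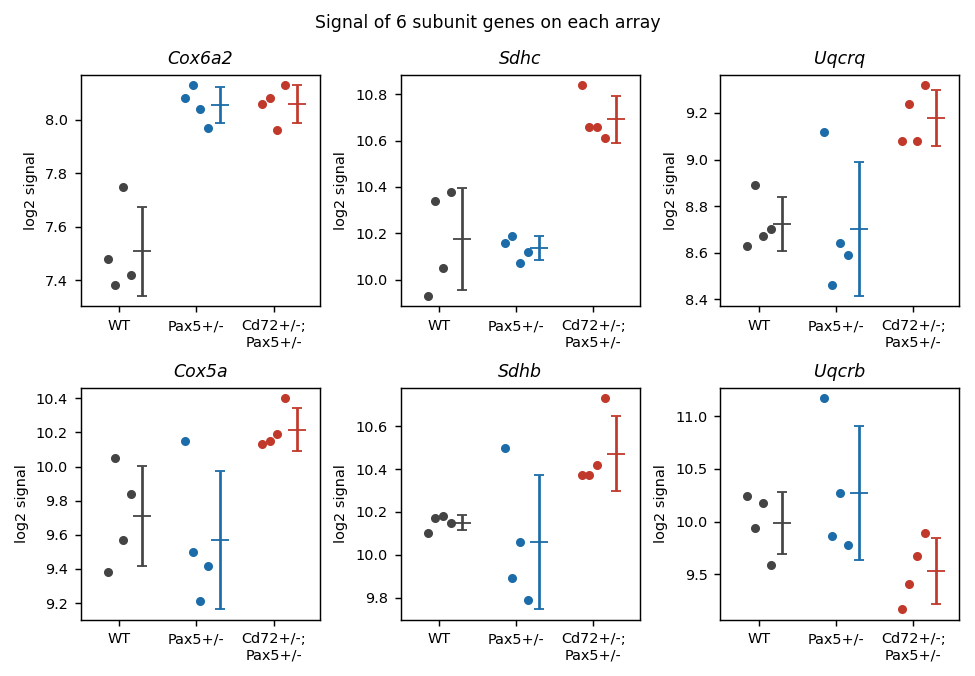
Log2 signal on each array for Cox6a2, Sdhc, Uqcrq, Cox5a, Sdhb and Uqcrb, with replicates 1 to 4 from left to right within WT, Pax5+/- and Cd72+/-;Pax5+/-, and the mean with its SD (n = 4) beside them. Cox6a2 is raised in both mutant groups, Sdhc lies highest on the 4 Cd72+/-;Pax5+/- arrays, and Uqcrb is lowest on a Cd72+/-;Pax5+/- array; vertical axes do not start at 0.

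In complex III, Uqcrq rose in Cd72+/-;Pax5+/- against both other groups, and the other 7 members did not pass. Uqcrq, a small subunit bound to cytochrome b, read 8.63, 8.89, 8.67 and 8.70 in the WT group, 9.12, 8.46, 8.64 and 8.59 in Pax5+/-, and 9.08, 9.24, 9.08 and 9.32 in Cd72+/-;Pax5+/-. The Cd72+/-;Pax5+/- arrays lay above all WT arrays, but Pax5+/- replicate 1 lay within their range. It rose by 0.46 against WT (SE 0.121, limma adjusted p = 0.0376, 1.37-fold) and by 0.48 against Pax5+/- (SE 0.121, adjusted p = 0.0252, 1.39-fold).

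The call of Uqcrq against WT ended without any 1 of WT replicates 1, 3 and 4, of Pax5+/- replicate 3 or of the 4 Cd72+/-;Pax5+/- arrays. It also ended with arrays shifted to a common median (limma adjusted p = 0.0537), with the closest pairs as a random block (0.162) and with the pairs averaged (0.301). The call against Pax5+/- ended without any 1 of Pax5+/- replicates 2, 3 and 4 or of Cd72+/-;Pax5+/- replicates 2 and 4, with the pairs as a random block (adjusted p = 0.116) and with the pairs averaged (0.234). Over the alternatives the size of the rise stayed between 0.41 and 0.51 against WT, with adjusted p from 0.00224 to 0.301, and between 0.40 and 0.62 against Pax5+/-, with adjusted p from 0.000388 to 0.234.

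Uqcrb, known as the ubiquinone-binding subunit, differed in the other direction. It read 10.24, 9.94, 10.18 and 9.59 in the WT group, 11.17, 9.86, 10.27 and 9.78 in Pax5+/-, and 9.17, 9.41, 9.67 and 9.89 in Cd72+/-;Pax5+/-. The 2 lowest of the 12 values were those of Cd72+/-;Pax5+/- replicates 1 and 2, Pax5+/- replicate 1 held the highest, and the groups overlapped. Its range of 2.00 was the widest of the 81 members. The differences of -0.45 from WT (SE 0.271, adjusted p = 0.413) and -0.735 from Pax5+/- (SE 0.271, adjusted p = 0.12) did not pass. The other 2 clusters of Uqcrb gave -0.49 and -0.50 against WT and -0.755 and -0.78 against Pax5+/-, also short of the threshold. Uqcrb was chosen for description after its values were seen.

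The median of the 8 members of complex III was 0.0812 in Pax5+/- against WT, 0.215 in Cd72+/-;Pax5+/- against WT and 0.0862 between the mutants. With Pax5+/- replicate 1 left out these were -0.0737, 0.215 and 0.2087, and without Cd72+/-;Pax5+/- replicate 4 they were 0.0812, 0.1583 and 0.0067. The genes of the core proteins and the Rieske iron-sulphur protein, Uqcrc1, Uqcrc2 and Uqcrfs1, had median changes of 0.005, 0.0975 and 0.025 in the 3 comparisons. The 5 small subunits had medians of 0.18, 0.325 and 0.15. Uqcrh, the hinge protein, which contacts cytochrome c1, read 10.55 ± 0.406 in the WT group, 11.03 ± 0.358 in Pax5+/- and 10.95 ± 0.161 in Cd72+/-;Pax5+/-. Its WT values were divided by the closest pairs, at 10.88 and 10.91 on replicates 1 and 3 and 10.30 and 10.11 on replicates 2 and 4. The difference of 0.48 in Pax5+/- did not pass (SE 0.2, adjusted p = 0.217).

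Complex IV held the member with the smallest adjusted p, Cox6a2, which rose to close levels in both mutant groups. It read 7.48, 7.38, 7.75 and 7.42 in the WT group, 8.08, 8.13, 8.04 and 7.97 in Pax5+/-, and 8.06, 8.08, 7.96 and 8.13 in Cd72+/-;Pax5+/-. All 8 mutant arrays lay above all WT arrays, and Pax5+/- replicate 1 was not the highest of them. It rose by 0.55 in Pax5+/- (SE 0.0757, limma adjusted p = 0.000466, 1.46-fold) and by 0.55 in Cd72+/-;Pax5+/- (SE 0.0757, adjusted p = 0.000484, 1.46-fold). The mutants differed by 0.0025, with a 95% interval of -0.162 to 0.167. Both calls held when any single array was left out and were lost once the closest pairs were averaged (adjusted p = 0.0682 and 0.0686).

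Cox6a2 is known in plasmacytoid dendritic cells as well as in striated muscle. The 7 measured markers of plasmacytoid dendritic cells averaged 7.60 to 7.78 in the WT group, 7.57 to 7.70 in Pax5+/- and 7.55 to 7.64 in Cd72+/-;Pax5+/-, so their mean was not higher on the mutant arrays. Of these markers Ccr9 rose and Bst2 fell in Pax5+/-, Irf8 fell in Cd72+/-;Pax5+/-, and Siglech, a defining surface receptor of these cells, read 6.05 to 6.34 on all 12 arrays. The 16 muscle markers averaged 6.72 to 6.85 on all arrays and the 9 adipocyte markers 5.96 to 6.08, and none of either list was called in any comparison.

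The other tissue-restricted isoforms of complex IV did not pass in any comparison. Cox4i2, the hypoxia-responsive lung form of subunit IV, read 7.19 ± 0.0492 in the WT group, 7.13 ± 0.0457 in Pax5+/- and 7.25 ± 0.0624 in Cd72+/-;Pax5+/-. The mutants did not overlap for it, with a highest Pax5+/- value of 7.16 and a lowest Cd72+/-;Pax5+/- value of 7.18, and the difference of their means of 0.12 did not pass (SE 0.0468, adjusted p = 0.144). Cox7a1 and Cox8b, of muscle and brown fat, averaged 7.02 to 7.14 and 6.09 to 6.17 over the groups. The testis forms Cox6b2, Cox7b2 and Cox8c averaged 6.52 to 6.57, 5.13 to 5.25 and 6.52 to 6.64. The 7 restricted isoforms had median changes of 0.0375, 0.06 and 0.04, and Cox6a2 was the single call among them.

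The common counterparts did not pass. Cox6a1, which takes the place of Cox6a2 outside muscle, read 10.94 ± 0.224 in the WT group, 11.04 ± 0.319 in Pax5+/- and 11.09 ± 0.185 in Cd72+/-;Pax5+/-, with differences of 0.10 and 0.15 from WT (SE 0.154 each). Cox4i1, the common form of subunit IV, read 9.72, 9.80, 9.86 and 9.55 in the WT group, 10.27, 9.80, 9.77 and 9.71 in Pax5+/-, and 9.97, 10.16, 10.09 and 10.43 in Cd72+/-;Pax5+/-. The Cd72+/-;Pax5+/- arrays lay above all WT arrays, with a difference of 0.43 that missed the threshold (SE 0.127, adjusted p = 0.061). Cox6b1, Cox7a2 and Cox8a differed from WT by 0.265, -0.0875 and 0.225 in Cd72+/-;Pax5+/-, with adjusted p from 0.454 to 0.88.

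Cox5a, a matrix-side subunit of the oxidase, read 9.38, 10.05, 9.57 and 9.84 in the WT group, 10.15, 9.50, 9.21 and 9.42 in Pax5+/-, and 10.13, 10.15, 10.19 and 10.40 in Cd72+/-;Pax5+/-. Apart from Pax5+/- replicate 1, which lay within their range, the Cd72+/-;Pax5+/- arrays lay above all others. It rose by 0.65 against Pax5+/- (SE 0.184, limma adjusted p = 0.0437, 1.57-fold), and the difference of 0.51 from WT did not pass (adjusted p = 0.132). The call ended without any 1 of WT replicate 4, Pax5+/- replicates 2, 3 and 4 or the 4 Cd72+/-;Pax5+/- arrays, and also with arrays shifted to a common median (adjusted p = 0.0557), with the closest pairs as a random block (0.184) and with the pairs averaged (0.232). The change ranged over the alternatives from 0.53 to 0.84, with adjusted p from 0.00217 to 0.232. Without the restricted isoforms, the other 10 members of complex IV had median changes of 0.14, 0.245 and 0.0488. All 17 members of complex IV had medians of 0.09, 0.115 and 0.04. They were 0.0008, 0.115 and 0.1242 without Pax5+/- replicate 1, and 0.09, 0.12 and 0.0233 without Cd72+/-;Pax5+/- replicate 4.

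Complex V supplied 17 members and no call (limma, with 0, 4 and 1 members at an unadjusted p under 0.05), although 16 of 17 were above 0 in each comparison with Cd72+/-;Pax5+/-. That p was reached by 18.0%, 19.7% and 22.2% of all clusters. The median changes of complex V were 0.065 in Pax5+/- against WT, 0.21 in Cd72+/-;Pax5+/- against WT and 0.145 between the mutants. The 5 genes of the F1 head, the catalytic part with its central stalk, had medians of 0.15, 0.19 and 0.22. The 3 genes of the c-ring, the rotor in the membrane, had medians of 0.0425, 0.29 and 0.43. The 4 genes of the peripheral stalk had medians of 0.03, 0.24 and 0.20, and the 5 small membrane subunits 0.085, 0.19 and 0.11. Without Pax5+/- replicate 1 the median of the complex in Pax5+/- against WT turned to -0.1275, with 2 members above 0 and 15 below. Between the mutants it was then 0.32 with all 17 above 0 and 4 called higher, where 9.96% of all clusters were called. Without Cd72+/-;Pax5+/- replicate 4 the median against WT was 0.115, with 14 above 0, and that between the mutants 0.0608, with 12 above 0, and none was called.

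Atp5d, the delta subunit of the central stalk, differed most from WT in Cd72+/-;Pax5+/-. It read 9.28, 9.96, 9.41 and 9.46 in the WT group, 10.52, 9.69, 9.49 and 9.42 in Pax5+/-, and 9.84, 10.27, 10.12 and 10.47 in Cd72+/-;Pax5+/-. WT replicate 2 reached into the Cd72+/-;Pax5+/- range and Pax5+/- replicate 1 exceeded it. The difference of 0.65 from WT did not pass (SE 0.228, adjusted p = 0.12).

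Atp5g3, a c-ring gene, came closest to the threshold between the mutants. It read 10.58, 11.10, 10.77 and 10.92 in the WT group, 11.09, 10.61, 10.55 and 10.57 in Pax5+/-, and 11.10, 11.10, 11.08 and 11.26 in Cd72+/-;Pax5+/-. Of the Pax5+/- arrays only replicate 1 reached the Cd72+/-;Pax5+/- range, and the difference of 0.43 had an adjusted p of 0.0523 (SE 0.127). Atp5b, the catalytic beta subunit and the member of this complex with the highest mean, read 12.13 ± 0.202 in the WT group, 12.02 ± 0.178 in Pax5+/- and 12.24 ± 0.0668 in Cd72+/-;Pax5+/-, and no difference passed (adjusted p = 0.649, 0.676 and 0.227).

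The mean of each complex on each array showed which arrays carried these differences. On Pax5+/- replicate 1 complex I averaged 9.68, against 8.92 to 9.11 on the other Pax5+/- arrays, and complex V averaged 11.04 against 10.13 to 10.39. Complex II averaged 10.60 against 10.14 to 10.36. On the Cd72+/-;Pax5+/- arrays complex II averaged 10.50, 10.51, 10.55 and 10.68, each above all 4 WT means of 10.26 to 10.40. For complex I the Cd72+/-;Pax5+/- means of 9.10 to 9.47 overlapped the WT means of 8.92 to 9.21.

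**Figure D4:**
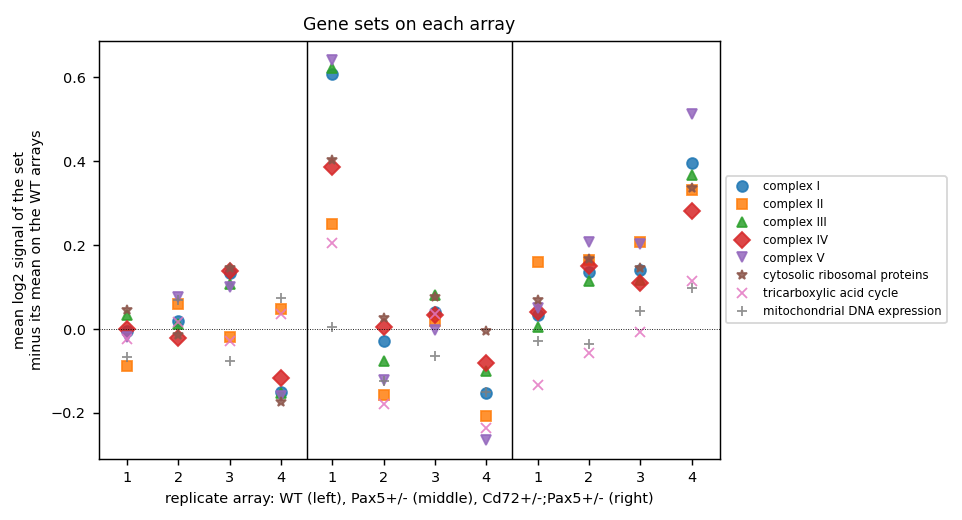
Mean log2 signal of complexes I to V, cytosolic ribosomal protein genes, tricarboxylic acid cycle genes and mitochondrial DNA expression genes on each of the 12 arrays, less the mean of the same set over the WT arrays. The complexes, the ribosomal protein genes and the tricarboxylic acid cycle genes stand highest on Pax5+/- replicate 1 and Cd72+/-;Pax5+/- replicate 4. The mitochondrial DNA expression genes stand near 0 and 0.1 on these arrays, the latter also their highest value.

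The cytosolic ribosomal protein genes, another large set of short, abundant transcripts, moved with the subunit genes from array to array, and their part in the results was not tested. Of 57 such genes, none was called in Pax5+/- against WT, 5 rose and 1 fell in Cd72+/-;Pax5+/- against WT, and 1 rose and 1 fell between the mutants, where 7.47%, 7.78% and 9.79% of all clusters were called. Their median changes were 0.15, 0.20 and 0.065. The medians without Pax5+/- replicate 1 were 0.0467, 0.20 and 0.1642, with 13 called higher and 1 lower in Cd72+/-;Pax5+/- against WT (8.77% of all clusters) and 5 higher and 1 lower between the mutants (9.96%). Without Cd72+/-;Pax5+/- replicate 4 the medians were 0.15, 0.1583 and 0.0167, with none called against WT (5.85%) and 1 lower between the mutants (7.83%). With all arrays, the subunit genes had medians of 0.08, 0.18 and 0.0825. Of the mitochondrially encoded subunits, ND3 of complex I and COX2 of complex IV were matched by symbol. ND3 read 12.78 ± 0.0499 in WT and 12.93 in both mutant groups (SD 0.114 and 0.0457), and COX2 read 13.44 ± 0.0638, 13.58 ± 0.0424 and 13.55 ± 0.0516. Neither passed in any comparison.

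Factors that assemble the complexes were called singly. Of 14 measured assembly factors of complex I, Foxred1 and Tmem186 fell in Pax5+/- against WT, none passed in Cd72+/-;Pax5+/- against WT, and Foxred1 rose between the mutants. These were 14.3%, 0% and 7.14% of the list, where 7.47%, 7.78% and 9.79% of all clusters were called. Foxred1, an oxidoreductase of complex I assembly, read 8.83, 8.93, 8.77 and 9.09 in the WT group, 8.69, 8.45, 8.50 and 8.43 in Pax5+/-, and 8.72, 8.86, 8.91 and 8.92 in Cd72+/-;Pax5+/-. Every Pax5+/- array lay below every other array. Foxred1 fell by 0.39 in Pax5+/- (SE 0.0794, limma adjusted p = 0.00822) and rose by 0.335 between the mutants (adjusted p = 0.0174). Tmem186 fell by 0.215 (SE 0.0599, adjusted p = 0.0486).

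Of 28 measured assembly factors of complexes II to V, Atpaf1 rose in both mutants and Uqcc2, Cox18 and Atpaf2 rose between them. These calls were 3.57%, 3.57% and 10.7% of the list in the 3 comparisons, where 7.47%, 7.78% and 9.79% of all clusters were called. Atpaf1, a chaperone of the ATP synthase beta subunit, read 7.87, 7.78, 7.53 and 7.84 in the WT group, 8.41, 8.25, 8.29 and 8.26 in Pax5+/-, and 8.32, 8.37, 8.58 and 8.52 in Cd72+/-;Pax5+/-. All mutant arrays lay above all WT arrays. Atpaf1 rose by 0.55 in Pax5+/- (SE 0.0811, adjusted p = 0.000799) and by 0.69 in Cd72+/-;Pax5+/- (SE 0.0811, adjusted p = 0.000127), while its client Atp5b did not pass.

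Cox18, which inserts the COX2 tail into the membrane, read 8.78, 8.46, 8.42 and 8.40 in Pax5+/- and 8.84, 9.07, 9.13 and 9.31 in Cd72+/-;Pax5+/-. The groups did not overlap, and Cox18 rose by 0.57 between the mutants (SE 0.102, adjusted p = 0.00278). Uqcc2, needed for cytochrome b synthesis, rose by 0.60 (SE 0.165, adjusted p = 0.0387), with Pax5+/- replicate 1 inside the Cd72+/-;Pax5+/- range, and Atpaf2, a chaperone of the alpha subunit, rose by 0.28 (SE 0.0746, adjusted p = 0.0307). The medians of this list were -0.0488, 0.0063 and 0.0612 in the 3 comparisons.

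Of 20 electron carriers and ATP exporters, which include cytochrome c and the adenine nucleotide translocases, Coq5, a methyltransferase of ubiquinone synthesis, rose between the mutants by 0.47 (SE 0.135, limma adjusted p = 0.0448), and none was called against WT. The translocases Slc25a4 and Slc25a5 differed from WT by between -0.0175 and 0.065 and did not pass. Of 17 genes of the tricarboxylic acid cycle and its pyruvate supply, Pdha1, the X-linked alpha subunit of pyruvate dehydrogenase, fell between the mutants by 0.32 (SE 0.09, adjusted p = 0.0436), and none was called against WT. Coq5 and Pdha1 made up 5.0% and 5.88% of their lists. Over all clusters, 7.47% and 7.78% were called in the comparisons with WT and 9.79% between the mutants. Of 22 genes of mitochondrial DNA expression and biogenesis none was called in limma, with 4, 5 and 4 at an unadjusted p under 0.05. That level was reached by 18.0%, 19.7% and 22.2% of all clusters. Tfam, which packages and transcribes mitochondrial DNA, read 8.04 ± 0.07 in the WT group, 7.84 ± 0.272 in Pax5+/- and 7.88 ± 0.176 in Cd72+/-;Pax5+/-.

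The members that lie on chromosome X, where a difference of sex could enter, were Ndufa1, Ndufb11 and Cox7b, and none passed. Ndufa1 read 9.19 ± 0.309 in the WT group, 9.51 ± 0.364 in Pax5+/- and 9.41 ± 0.179 in Cd72+/-;Pax5+/-. Ndufb11 read 9.64 ± 0.288, 9.85 ± 0.428 and 9.69 ± 0.256, and Cox7b read 11.14 ± 0.204, 11.03 ± 0.451 and 10.99 ± 0.262. In the clusters used, the largest difference of these 3 between the mutants was -0.16, for Ndufb11, below its SE of 0.204. The other cluster of Ndufb11 gave -0.195, above its SE of 0.175, and that of Cox7b gave -0.0275. Neither passed (limma adjusted p = 0.588 and 0.959). As none of these 3 was called, leaving them out could not change which genes were called. The part of sex in the called genes was not tested.

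The 5 measured neighbours on each side of the called members showed whether a stretch of chromosome moved with them. Around Sdhc on chromosome 1, Fcgr3 rose in both mutants against WT and Fcrla rose in Pax5+/- and fell between the mutants. No neighbour of Sdhc rose between the mutants, as Sdhc did. Around Cox6a2 on chromosome 7, Pycard rose in both mutants, by 0.24 and 0.67, Itgam rose in Pax5+/-, and Itgad fell in Cd72+/-;Pax5+/- against both other groups. Pycard also rose between the mutants. Around Uqcrq on chromosome 11 none was called against WT, and Aff4 and Shroom1 were called between the mutants in opposite directions. Around Cox5a on chromosome 9, Scamp5 rose in Pax5+/- against WT by 0.44 and fell between the mutants, by 0.26 (limma adjusted p = 0.000682 and 0.022), and the other 9 neighbours were not called.

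Some markers of other cells moved with the groups and with the WT pairs. The 14 stromal and endothelial markers averaged 7.93 and 7.90 on WT replicates 1 and 3, 7.51 and 7.53 on replicates 2 and 4, 7.10 to 7.74 on the Pax5+/- arrays and 6.96 to 7.08 on the Cd72+/-;Pax5+/- arrays. The pro-B markers were divided in the same way in WT, at 11.81 and 11.86 on replicates 1 and 3 and 11.02 and 10.95 on replicates 2 and 4. The 7 monocyte and macrophage markers averaged 6.55 to 6.80 in the WT group, 6.67 to 6.74 in Pax5+/- and 6.11 to 6.19 in Cd72+/-;Pax5+/-. Ccr2 was the single one called, lower in Cd72+/-;Pax5+/- than in both other groups. The lowest change of this list in Cd72+/-;Pax5+/- was -3.5775 against WT and -3.915 against Pax5+/-. The median changes of the list were -0.01 and -0.0075, with 3 markers above 0 and 4 below in each. Of the stromal list Alpl fell in Pax5+/-, and Alpl, Sparc and Cxcl12 fell in Cd72+/-;Pax5+/- against WT. Between the mutants, where Sdhc, Uqcrq and Cox5a were called, Alpl rose by 1.53 and Cxcl12 fell by 1.58. In limma 9 of the 14 stromal markers reached an unadjusted p under 0.05, 2 of them higher and 7 lower. Of all clusters, 22.2% reached that level in this comparison. The 7 erythroid markers averaged 7.38 to 7.69 on all arrays, the 10 granulocyte markers 6.03 to 6.26, the 9 T and NK cell markers 5.74 to 5.94 and the 8 testis germ cell markers 5.80 to 5.92. Single genes of the first 3 of these lists were called (Tfrc, Aqp1, Itgam and Nkg7). The part of the stromal and monocyte markers in the differences of Sdhc, Uqcrq and Cox5a was not tested.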

How the data were processed

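Log2 signal per transcript cluster was deposited by the authors for 12 arrays, with values from 3.67 to 14.73, and the authors used the Transcriptome Analysis Console, per the labels. For background correction, normalization and genome build the methods are not stated in the sources used here. Groups came from the sample titles, and symbols from the platform annotation: 21789 clusters carry 1 symbol, 1621 several and 5534 none. Another 6 clusters with several symbols, of which 1 matched the patterns, were not used.

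With limma 3.58.1 (R 4.3.3), group means were fitted to the 23410 clusters with a symbol, with no filter, all 12 arrays in the fit and a constant prior; residual degrees of freedom were 9 and those of the prior 3.285. Calls were made where the p adjusted by Benjamini-Hochberg was under 0.05. SEs and 95% intervals are those of the contrast, and SDs are over 4 arrays. The fit was tested on simulated data with independent noise for each cluster and array. That test does not cover close pairs of arrays or members that move together.

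Named members were the called ones, the 4 Sdh genes, the tissue-restricted isoforms with their counterparts, the X-linked members and, per complex, the uncalled member with the highest mean, and up to 4 called genes per pathway list. Others were chosen after their values were seen. Promoter motifs were searched as short cores, after longer forms had been searched first and their matches seen. The members and lists were chosen with earlier results of these data known. Alternatives changed the normalization, filter, clusters tested, prior, samples in the fit, array weights, threshold and cluster per gene, treated the closest pairs of arrays as units or as a block, and left out each array in turn. Figures used Python 3.11.15 and matplotlib 3.10.9. The number of arrays limits the precision.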

Additional observations from a re-analysis of the deposited data

Results flagged for a closer look

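Each group of 4 arrays was searched for a highest or lowest array far from the rest, relative to the range of the group (Dixon's test at the 95% level), over the named members. Cox4i1 read 10.27 on Pax5+/- replicate 1, against 9.71 to 9.80 on the other Pax5+/- arrays. Ndufa1 read 10.06 on Pax5+/- replicate 1, against 9.31 to 9.37. Sdhb read 10.73 on Cd72+/-;Pax5+/- replicate 4, against 10.37 to 10.42. These 3 came from 96 groups searched, and chance alone marks about 1 group in 20. Over all 81 members the same search marked 6 in Pax5+/-, each through replicate 1, 3 in Cd72+/-;Pax5+/-, each through replicate 4, and 0 in WT.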

How the results depend on the processing

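The SD of the array medians of the members was 0.2785, 0.1504 and 0.2904 in the 3 comparisons, with the high arrays included. The median changes of the members moved by less than this SD under all alternatives run. It exceeds the median changes of 0.08 in Pax5+/- against WT and 0.0825 between the mutants, so this says little of their stability. The median of Pax5+/- against WT changed sign without Pax5+/- replicate 1. Over the omissions of single arrays it ran from -0.0642 to 0.1667. That of Cd72+/-;Pax5+/- against WT ran from 0.1225 to 0.2408, and that between the mutants from 0.0025 to 0.2458. With the closest pairs of arrays averaged, as if each pair were 1 sample, limma called 0 members in each comparison (1.2%, 1.24% and 1.79% of all clusters), with 2, 8 and 5 at an unadjusted p under 0.05, where 8.97%, 9.67% and 11.1% of all clusters reached it. At the study's threshold (unadjusted p under 0.05 and over 2-fold) there were likewise 0, with 4, 16 and 9 at the unadjusted p alone. In Pax5+/- against WT 2 members were called after quantile normalization (7.42% of all clusters), at an adjusted p under 0.1 (9.96%) and with both high arrays left out (6.93%), and 1 to 2 over the omissions (5.72% to 8.37%). In Cd72+/-;Pax5+/- against WT there were 10 calls with only the compared groups in the fit (8.74%), 8 with array weights (11.9%), and 2 to 10 over the omissions (5.37% to 8.77%). Between the mutants there were 5 after quantile normalization (10.4%), 7 with array weights (13.2%), 1 with the closest pairs as a random block (5.97%), 5 at an adjusted p under 0.1 (13.8%), 11 with both high arrays left out (7.44%), and 1 to 16 over the omissions (7.12% to 10.5%). Of the changes of single named members, 1875 kept their side of the threshold, 20 gained it and 40 lost it, and none that was called turned its direction. No member has a pseudogene symbol or one of the Atp5-like symbols that an alternative was to leave out, so that alternative removed nothing; Ndufa4l2 and Cox7a2l stayed among the members throughout. No paired analysis was possible because sample numbers in the titles run through all groups, which share none of them.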
